A study of Homo sapiens with 9 samples.

Results

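Expression was followed in A375P, an established human melanoma line, over 2, 6 and 24 h in the solvent DMSO alone, which gave 3 of the 9 deposited columns of the series. Members were chosen by label: the 3 DMSO columns, with every array row that names exactly 1 gene, 19380 of 35446 rows and 17047 genes. The 6 other columns held the same cells with 1 µM PD184352, which blocks the MEK kinases, or 0.4 µM PLX4720, a RAF kinase inhibitor, each at 2, 6 and 24 h. All cells were grown as adherent cultures in 10 cm dishes, in DMEM with 10% foetal bovine serum, and total RNA was labelled with biotin and hybridised to an exon array that reports 1 value per transcript cluster. The design text speaks of triplicates, but each treatment and time had 1 column. The sources used here do not say whether a column is 1 array or a mean over several. A difference between DMSO columns therefore has no replicate check, and it is given as a size with no p-value.

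Cells in a dish do not stand still between samplings. They pass through S phase, when the core histones and the linker histone are made, and then through G2 and mitosis, when cyclin B, the mitotic kinases and the kinetochore proteins peak. They also use up glucose, amino acids and serum factors in the medium, and sensors such as the ATF4 pathway for amino acids and the unfolded protein response in the endoplasmic reticulum alter transcription when supply or folding falls short. A vehicle time course can hold such shifts in the cells to which every inhibitor column is compared. The columns used here hold transcript levels alone, so the part of any of these processes in a difference was not tested.

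The label was checked against markers. SOX10, the transcription factor of neural crest and melanocyte cells, had intensities of 989, 1152 and 1189 at 2, 6 and 24 h in DMSO. MITF, the master regulator of the melanocyte lineage, had 688, 744 and 1134, and nestin (NES), an intermediate filament of neural crest cells, had 1391, 1415 and 1396. MLANA, a melanosome antigen, was dim, at 96.5, 99.9 and 74.9. Markers of other cells ranged from dim to middling. PTPRC of leukocytes lay between 11.7 and 12.3, DCN of fibroblasts between 17.3 and 19.4, and DSG3 of keratinocytes between 20.9 and 21.8. Each was the dimmest of its list. In the endothelial list TEK, at 32.3 to 35.4, and PECAM1, at 33.9 to 35.2, were the dimmest. VWF of endothelium, at 203.7 to 246, and KRT14 of keratinocytes, at 184 to 224, were brighter, and levels of different probes cannot be set against each other. Summed over each list, leukocyte markers (4 of 6 with a row) lay between 192 and 211, keratinocyte markers (4 of 6) between 485 and 534, epithelial markers (5 of 5) between 715 and 726, endothelial markers (5 of 5) between 491 and 529, and fibroblast markers (5 of 6) between 432 and 450. The melanoma and neural crest list (8 of 9) summed to between 6266.5 and 6584.8. On a scale with no true zero, a dim value does not show that a transcript is absent.

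The DMSO cells differed little between times. At 6 h against 2 h, 102 genes were at least 1.5-fold higher (0.598% of the genes measured) and 52 at least 1.5-fold lower (0.305%), together 0.903%. At 24 h against 2 h these counts were 162 (0.95%) and 62 (0.364%), together 1.31%. At 24 h against 6 h they were 54 (0.317%) and 67 (0.393%), together 0.71%. Past 2-fold in either direction lay 10 genes at 6 h against 2 h (0.0587%), 17 at 24 h against 2 h (0.0997%) and 8 at 24 h against 6 h (0.0469%). Past 1.25-fold, a size chosen after the values were seen, these numbers were 1187 (6.96%), 1768 (10.4%) and 970 (5.69%). The same span of 24 h against 2 h put 1193 genes higher and 852 lower past 1.5-fold in PD184352, and 749 higher and 851 lower in PLX4720. The split by direction depended on scaling. With each column centred on its median, 112 genes were higher and 98 lower at 24 h against 2 h, and 81 higher and 67 lower at 6 h against 2 h. The 3 comparisons share columns, so a high or low column enters 2 of them.

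Dim genes made up much of the count at 6 h and less of it at 24 h. At 6 h against 2 h, 76 of the 154 genes past 1.5-fold belonged to the dimmest 25% of genes and 14 to the brightest 25%. At 24 h against 2 h, the dimmest 25% held 68 genes past 1.5-fold and the brightest 25% held 58. In the brightest 25%, 13 genes were higher and 1 lower at 6 h against 2 h, against 9 higher and 20 lower at 24 h against 6 h.

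**Figure D1:**
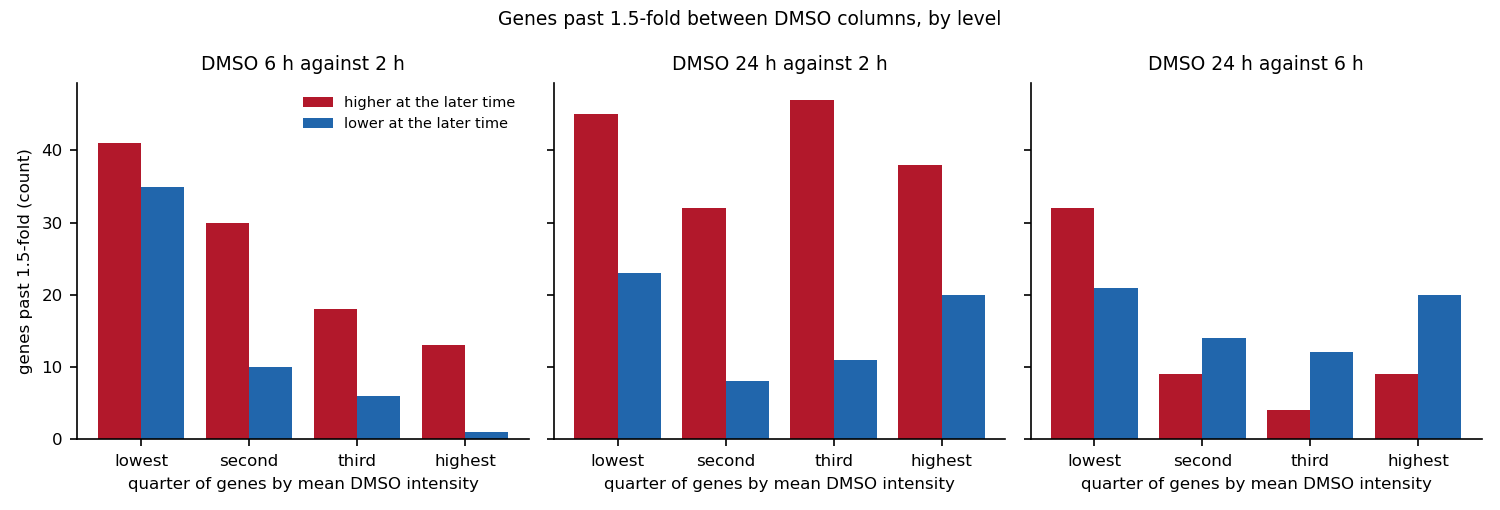
Number of genes at least 1.5-fold higher (red) or lower (blue) at the later DMSO time, for 4 groups of 25% of the genes ordered by mean DMSO intensity, with 1 panel per comparison. At 6 h against 2 h the counts decrease from the dimmest to the brightest group, whereas at 24 h against 2 h the group of the brightest genes still holds 38 higher and 20 lower genes.

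The listed replication-dependent histone genes, which are transcribed mainly in S phase, lay lower together by 6 h. All 19 of the 43 listed genes that have a row were lower at 6 h than at 2 h, where 48% of all genes were lower, with a median difference of −0.29 (log2 intensity, the scale of every difference given here) beside 0.01 over all genes. Of the 19, 9 were at least 1.25-fold lower, against 2.14% of all genes, and none reached 1.5-fold. They stayed there: at 24 h against 2 h, 18 of 19 were lower with a median of −0.30, and at 24 h against 6 h, 11 were higher and 8 lower with a median of 0.01. In bulk RNA, fewer cells that carry a transcript and less of it per cell cannot be told apart. At 6 h against 2 h the list's median was −0.16 in PD184352 (16 of 19 lower) and −0.28 in PLX4720 (17 of 19 lower).

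H2BC14, which encodes histone H2B, had intensities of 12918, 10162 and 10256 at 2, 6 and 24 h. H1-4, the gene of the linker histone H1.4, had 12026, 9898 and 9289. H4C2, an H4 gene, had 1525, 1180 and 1167. Each of these 3 genes was highest in the 2 h column, and its 6 h and 24 h values lay close to each other. H2BC21, another H2B gene, differed by −0.56 at 6 h and by −0.69 at 24 h, the largest difference of the list at 24 h against 2 h. H3C10, an H3 gene, differed by −0.58 at 6 h, the largest there, and by −0.37 at 24 h. H1-3 was the exception at 24 h, with intensities of 2739, 2418 and 2779. The list does not hold every histone gene of this kind. Among those outside it, H2AC21 followed the same course, at 7028, 5248 and 6002. The dim H2BC10 had 13.2, 13.3 and 26.7 and so was not lower at 6 h. In a limma fit of all 9 columns with treatment beside time, which tests a shift shared by DMSO and both inhibitors, 5 of the 19 listed genes fell at 24 h against 2 h, where 3.5% of all genes fell, among them H4C8 by 0.79 ± 0.14 (SE, adjusted p = 0.0317) and H2BC5 by 0.48 ± 0.08 (adjusted p = 0.0276). That number was 3 with a pseudocount of 32, and 12 of 16 without the dimmest 50% of genes. The inhibitor columns carry much of the size, since the list's median at 24 h against 2 h was −1.58 in PD184352 and −1.36 in PLX4720. No call of that fit held without the PD184352 columns or without the PLX4720 columns (0 genes each), which holds for every shift over the 3 treatments given below. For 15 of the 19 the DMSO change was less negative or more positive than the inhibitor change (limma, adjusted p below 0.05). That rule called 6.56% of all genes in that direction. Without the PLX4720 column at 2 h the number of histone genes called was 9, and without the PD184352 column at 2 h it was 10. In this test, here and below, DMSO has 1 column per time and is assumed to vary as PD184352 and PLX4720 do around their mean, so it holds no measure of the DMSO spread.

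The promoters of these bright histone genes and of the cyclin B genes described next are shown because both groups differed as blocks and carry different core elements. Each window runs from 250 bases before to 50 bases after the start of the gene in RefSeq (GRCh38.p14), on the gene's own strand. They are H2BC14 at chr6:27814772-27815071 (plus strand), H1-4 at chr6:26156079-26156378 (plus), H4C2 at chr6:26027234-26027533 (minus), CCNB1 at chr5:69166900-69167199 (plus) and CCNB2 at chr15:59104896-59105195 (plus). Capitals mark the E-box CACGTG, the cyclic AMP element TGACGTCA, the CCAAT box, which reads ATTGG on the other strand, the TATA box TATAAA, there TTTATA, and the GC box GGGCGG, there CCGCCC; in CCNB2 a CCGCCC overlaps a CCAAT.
H2BC14: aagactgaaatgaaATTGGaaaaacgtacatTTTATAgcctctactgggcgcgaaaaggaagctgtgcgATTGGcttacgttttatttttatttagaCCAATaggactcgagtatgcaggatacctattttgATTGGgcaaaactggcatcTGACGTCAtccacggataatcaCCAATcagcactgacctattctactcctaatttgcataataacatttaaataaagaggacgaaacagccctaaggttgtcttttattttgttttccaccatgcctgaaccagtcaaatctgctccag
H1-4: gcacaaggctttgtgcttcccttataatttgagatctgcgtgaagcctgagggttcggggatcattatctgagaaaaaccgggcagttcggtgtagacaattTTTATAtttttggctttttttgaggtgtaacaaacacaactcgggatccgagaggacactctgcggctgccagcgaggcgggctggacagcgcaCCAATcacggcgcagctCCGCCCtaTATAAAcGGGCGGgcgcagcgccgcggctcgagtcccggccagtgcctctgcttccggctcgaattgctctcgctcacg
H4C2: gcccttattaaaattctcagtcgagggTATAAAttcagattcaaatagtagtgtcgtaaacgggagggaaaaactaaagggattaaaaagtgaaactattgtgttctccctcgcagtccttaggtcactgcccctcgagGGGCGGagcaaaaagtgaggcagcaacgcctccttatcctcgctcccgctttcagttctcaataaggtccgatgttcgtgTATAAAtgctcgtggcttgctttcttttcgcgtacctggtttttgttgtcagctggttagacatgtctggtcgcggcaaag
CCNB1: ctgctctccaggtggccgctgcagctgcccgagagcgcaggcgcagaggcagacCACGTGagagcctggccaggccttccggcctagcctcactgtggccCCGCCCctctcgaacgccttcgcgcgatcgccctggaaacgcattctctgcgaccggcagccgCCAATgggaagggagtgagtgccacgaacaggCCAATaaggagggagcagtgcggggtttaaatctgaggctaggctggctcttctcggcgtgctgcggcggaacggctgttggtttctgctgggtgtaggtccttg
CCNB2: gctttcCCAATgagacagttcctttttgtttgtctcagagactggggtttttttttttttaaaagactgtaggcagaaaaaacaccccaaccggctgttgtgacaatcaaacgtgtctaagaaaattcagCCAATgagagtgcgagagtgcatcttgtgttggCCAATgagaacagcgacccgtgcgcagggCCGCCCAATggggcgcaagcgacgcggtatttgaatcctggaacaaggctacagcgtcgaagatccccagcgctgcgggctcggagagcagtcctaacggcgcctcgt

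Of the 17 listed histone genes with a promoter in the RefSeq table, 13 hold TATAAA (76.5%) and 15 hold CCAAT (88.2%), counted on both strands. Of the 23 mitosis genes with one, 1 holds TATAAA (4.35%) and 19 hold CCAAT (82.6%). Over the 13305 measured genes with a promoter these shares were 8.85% and 36%, and over all 27305 promoters they were 12% and 35.7%. Among genes that were at least 1.5-fold lower at 24 h than at 2 h, 13 of 39 promoters hold TATAAA (33.3%), and among those at least 1.5-fold higher, 8 of 126 (6.35%). Matches were counted anywhere in the window, so a match need not lie where a core element would. In H2BC14 the only TATAAA match is TTTATA, on the other strand and far from the start. A match is a description of these letters and not of a bound site.

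Genes of mitosis went the other way at 6 h and came back by 24 h. Of 28 listed genes with a row, 25 were higher at 6 h than at 2 h, against 52% of all genes, with a median difference of 0.23. None was past 1.5-fold and 5 were past 1.25-fold higher, against 4.82% of all genes. At 24 h against 6 h, 27 of 28 were lower with a median of −0.25, against 48% of all genes. Both statements rest on the same 6 h column. The 24 h against 2 h comparison had 14 higher and 14 lower, with a median of 0.01. A higher 6 h value was also found in both inhibitors, with medians of 0.32 in PD184352 and 0.15 in PLX4720 for 6 h against 2 h.

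CCNB2, a cyclin that drives entry into mitosis, had intensities of 971, 1364 and 1298 at 2, 6 and 24 h. CCNB1, the other main mitotic cyclin, had 2738, 3319 and 2804. CENPE, a kinetochore motor, had 205, 285 and 232, and DLGAP5, a spindle protein, had 613, 837 and 748. For all 4 genes the 6 h value was the highest. A small group behaved differently: PLK1, a kinase of mitotic entry, had 2772, 2609 and 1939, AURKB, the kinase of the chromosomal passenger complex, had 961, 864 and 653, and CDC20, an activator of the anaphase-promoting complex, had 812, 775 and 572. These 3 were not higher at 6 h and were the lowest of the list at 24 h, at −0.52, −0.56 and −0.50 against 2 h. The second array row of CDC20 had the opposite sign at 24 h against 2 h (0.04), and that of PLK1 was at −0.02, so both differences rest on the brighter row. Between DMSO and the inhibitors, the 24 h against 2 h change differed for all 28 genes (limma, adjusted p below 0.05, against 6.56% of all genes in that direction), with list medians of −1.41 in PD184352 and −1.35 in PLX4720. With the mean of all rows of a gene, 26 of 28 were called, and PLK1 (−0.03) and CDC20 (0.39) were not.

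DNA replication genes lay near the other bright genes at 6 h. Higher at 6 h than at 2 h were 26 of 35 (median 0.06), against 52% of all genes and 62% of the brighter 50% (median 0.05). Lower at 24 h than at 6 h were 30 of 35 (median −0.13, and −0.06 after quantile normalization), against 48% of all genes and 59.3% of the brighter 50% (median −0.03). RRM2, the small subunit of ribonucleotide reductase, had intensities of 399, 431 and 299, and CDT1, a licensing factor, had 681, 587 and 501. RRM2 had the largest difference of the list at 24 h against 6 h, at −0.53. The list's median at 24 h against 2 h was −0.09 in DMSO (10 higher and 25 lower), against −1.34 in PD184352 and −1.18 in PLX4720. For 28 of 35 genes the DMSO change was less negative or more positive than the inhibitor change (limma, adjusted p below 0.05). That rule called 6.56% of all genes in that direction.

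**Figure D2:**
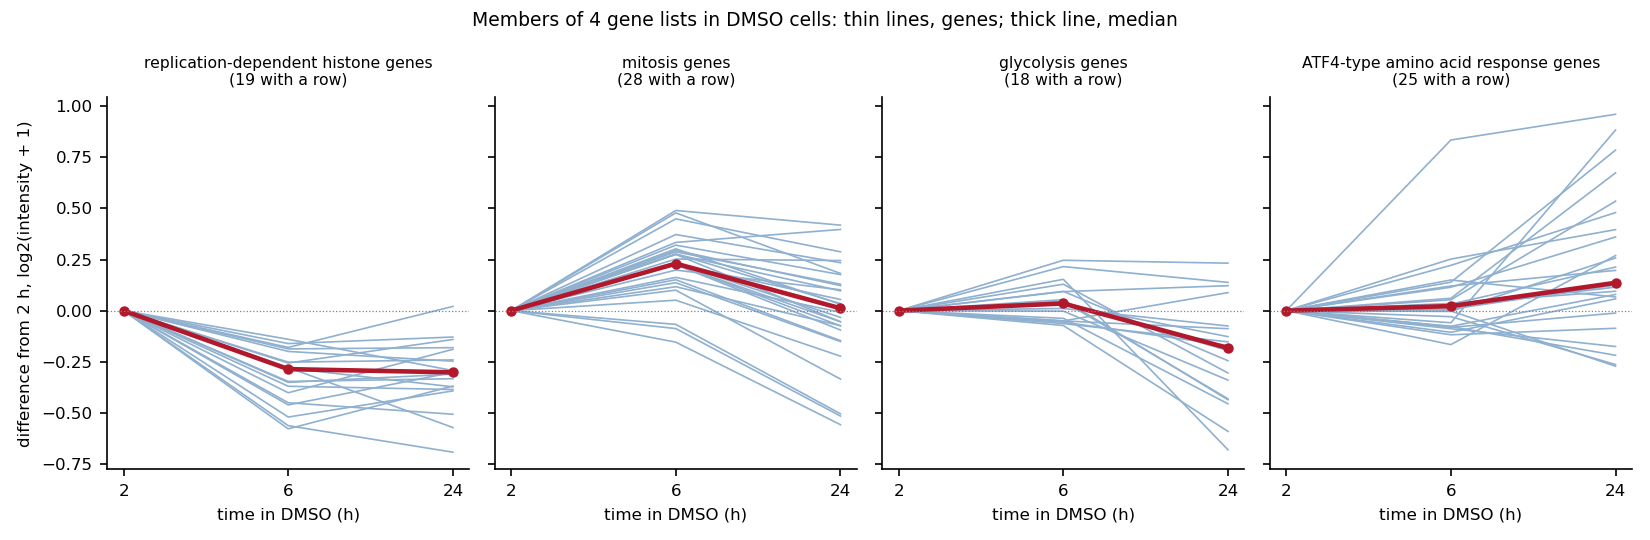
Difference from the 2 h DMSO column, on log2(intensity + 1), for each member (thin lines) and the median (thick line) of 4 gene lists at 2, 6 and 24 h. The histone list is lower by 6 h and stays there, the mitosis list peaks at 6 h, and the glycolysis and ATF4-type lists differ mainly between 6 and 24 h.

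Genes of glucose uptake and glycolysis were lower at 24 h. Of 18 with a row, 14 were lower at 24 h than at 2 h, against 48.4% of all genes, with a median of −0.18. Lower at 24 h than at 6 h were 16 (median −0.20), against 48% of all genes and 59.3% of the brighter 50%. SLC2A1, the glucose transporter GLUT1, had intensities of 1990, 2213 and 1242 at 2, 6 and 24 h, a difference of −0.68 at 24 h against 2 h. ENO2, an enolase, had 923, 878 and 613. GAPDH had 739, 720 and 538, and LDHA, the lactate dehydrogenase that regenerates NAD in glycolysis, had 372, 407 and 301. In each of these 4 genes the 24 h value was the lowest, and it lay farther from the 2 h value than the 6 h value did. The difference was of like size in the inhibitors, with list medians at 24 h against 2 h of −0.18 in PD184352 and −0.23 in PLX4720. In the limma fit of time over the 3 treatments, 7 of 18 fell at 24 h against 2 h, among them SLC2A1 by 0.87 ± 0.08 (SE, adjusted p = 0.0234) and ENO1 by 0.40 ± 0.06 (adjusted p = 0.0247), with GAPDH, LDHA, PFKP, HK2 and PKM, where 3.5% of all genes fell. With the mean of all rows of a gene 4 were called, and GAPDH and PKM were among the genes lost. PGAM1 and TPI1 were among the 4 higher in DMSO, and 2 of the 4 PKM array rows had the opposite sign.

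Genes of the antioxidant response also ran lower at 24 h. Of 11 metallothionein and oxidative stress genes with a row, 10 were lower at 24 h than at 2 h, against 48.4% of all genes, with a median of −0.16. HMOX1, which breaks down haem, had intensities of 402, 342 and 246, and SRXN1, which reactivates oxidised peroxiredoxins, had 1119, 1036 and 800. The metallothioneins with a row (MT1B, MT1G and MT1X) were dimmer and differed by −0.17 to −0.05. In the fit over the 3 treatments 3 of the 11 fell, against 3.5% of all genes, with SRXN1 down by 0.97 ± 0.18 (limma, SE, adjusted p = 0.0331). That size holds the inhibitor columns and is not the DMSO difference. The list's median at 24 h against 2 h was −0.21 in PD184352 and −0.37 in PLX4720.

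Most listed genes of the amino acid response ran higher at 24 h in DMSO. Of 25 genes of the ATF4 type with a row, 19 were higher at 24 h than at 2 h, against 51.6% of all genes, and 4 were past 1.5-fold, against 0.95% of all genes. CHAC1, which degrades glutathione, had intensities of 389, 373 and 718 at 2, 6 and 24 h. SLC7A11, the cystine importer, had 1154, 1203 and 1841, and ALDH1L2, a mitochondrial folate enzyme, had 103, 114 and 179. In these 3 genes the 24 h column stood above the other two. DDIT4, an inhibitor of mTORC1, had 323, 576 and 629, so most of its difference lay before 6 h. PSAT1, an enzyme of serine synthesis, differed by 0.54 at 24 h against 2 h. ATF4 itself had 402, 401 and 333, and SESN2 and ATF5, both known targets, were also lower, at −0.22 and −0.26. PPP1R15A, a stress-induced gene outside the list, was among the 15 largest downward differences of all genes at 24 h against 2 h.

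The ATF4-type genes were not higher as a group in the inhibitor columns. The list's median at 24 h against 2 h was 0.14 in DMSO (19 of 25 higher, and 0.08 with each column centred on its median), against −0.25 in PD184352 and −0.20 in PLX4720. The change differed between DMSO and the inhibitors for 10 of 25 genes, all higher in DMSO, against 6.56% of all genes. CHAC1 was 0.88 higher at 24 h in DMSO, against −0.72 in PD184352 and −0.68 in PLX4720 (difference 1.58 ± 0.15, SE, limma adjusted p = 0.00142). SLC7A11 was 0.67 higher in DMSO, against −1.32 and −1.61 (difference 2.14 ± 0.15, limma adjusted p = 0.00108). DDIT4 was higher at 24 h in all 3 treatments, at 0.96 in DMSO, 0.91 in PD184352 and 0.61 in PLX4720, and rose over the 3 treatments by 0.83 ± 0.09 (limma, adjusted p = 0.0234).

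Genes of endoplasmic reticulum stress were also higher at 24 h in DMSO. Of 14 with a row, 11 were higher at 24 h than at 2 h (median 0.18), against 51.6% of all genes, and 13 at 24 h than at 6 h (median 0.16), against 52%. With each column centred on its median, 9 of 14 were higher at 24 h than at 2 h in DMSO (median 0.13). The medians at 24 h against 2 h, without centring, were −0.02 in PD184352 and 0.02 in PLX4720. HSPA5, the lumenal chaperone BiP, had intensities of 381, 438 and 636, the 1 member past 1.5-fold, but its second row was at 0.22 and the mean of both (0.48) lay below 1.5-fold. PDIA4, a disulphide isomerase, had 1028, 1152 and 1416, and SEL1L, part of the degradation machinery, had 586, 700 and 799. Both were higher in each later column, and XBP1, a transcription factor of this response, had 659, 699 and 812. Over the 3 treatments 3 members rose at 24 h against 2 h, where 6.18% of all genes rose: SEL1L by 0.50 ± 0.07 (limma, SE, adjusted p = 0.0246), HERPUD1 by 0.42 ± 0.07 (adjusted p = 0.0293) and HSPA5 by 0.47 ± 0.11 (adjusted p = 0.046). The call of HSPA5 was lost with a pseudocount of 32, with the mean of its rows, and with the trend and robust settings.

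Melanocyte genes went both ways: of 16 with a row, 10 were higher at 24 h than at 2 h and 6 lower, where 51.6% of all genes were higher. Without the dimmest 50% of genes, 9 of 10 were higher (median 0.25), where 51% of the brighter 50% were higher. MITF, at the intensities given above, differed by 0.72, and most of that lay after 6 h. S100B, a calcium-binding protein used as a melanoma marker, had 213, 281 and 361. PMEL, which forms the fibrils of the melanosome, had 2222, 1996 and 1186, a difference of −0.90, and MLANA differed by −0.36. Over the 3 treatments, MITF rose by 0.88 ± 0.09 (limma, SE, adjusted p = 0.0234), S100B by 1.41 ± 0.23 (adjusted p = 0.0297), EDNRB, the endothelin receptor of melanocytes, by 0.86 ± 0.14 (adjusted p = 0.0297), and SOX10, RAB38 and CDH19 also rose. PMEL fell by 0.59 ± 0.12 (limma, adjusted p = 0.0356). That fit called 6 of the 16 genes higher, against 6.18% of all genes, and 1 lower, against 3.5%. For S100B the change was smaller in DMSO, at 0.75, than in PD184352 and PLX4720, at 1.75 and 1.72 (difference −0.98 ± 0.13, limma adjusted p = 0.00325).

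Targets of YAP and TEAD, the transcription factors that respond to cell density and stretch, were lower at 24 h than at 6 h in 17 of 20 genes, with a median of −0.23, against 48% of all genes and 59.3% of the brighter 50%. The 6 h column had a part in this, since 13 of 20 were higher at 6 h than at 2 h (median 0.09), and at 24 h against 2 h 7 were higher and 13 lower (median −0.04). CCN1, a secreted matrix protein, had intensities of 615, 401 and 240 at 2, 6 and 24 h, lower at each later time and the largest downward difference of all 17047 genes at 24 h against 2 h (−1.36). CCN2, its relative, had 894, 764 and 543. AJUBA, a LIM protein of cell junctions, had 429, 540 and 332, and MYOF, a membrane-repair ferlin, had 1711, 2207 and 1650. TEAD1 itself, a factor and not only a target, is counted among the 20 genes. It was higher at each later time, at 552, 950 and 1027, although its other array row was at −0.07 for 24 h against 2 h. CCN1 fell over the 3 treatments by 1.01 ± 0.12 (limma, SE, adjusted p = 0.0234). The 24 h against 2 h difference of CCN2 was −0.72 in DMSO, against −0.22 in PD184352 and −0.01 in PLX4720. Cytoskeletal genes, several of which answer to the same cues, were lower at 24 h than at 2 h in 19 of 23 cases (median −0.08), against 48.4% of all genes, with TPM1, a tropomyosin, at 920, 943 and 640 and ACTG1, a cytoplasmic actin, at 955, 846 and 732.

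Among single genes of the brighter 50%, the largest 24 h against 2 h differences upward were those of YPEL2, ATL3, ABCA8, DDIT4, ZNF616, GINM1, APH1B, MSANTD4, TEAD1 and KLHL28. YPEL2, of the yippee-like family, had intensities of 227, 313 and 504, and both of its array rows were higher at 24 h. The second rows of GINM1 (0.05) and ZNF616 (0.11) differed little at 24 h against 2 h. ABCA8, a lipid transporter, had 146, 179 and 292. ATL3, an atlastin that shapes the endoplasmic reticulum, had 935, 1439 and 1893, but its other row was at 0.02. HAS2, the hyaluronan synthase, was dim, at 27.4, 33.1 and 67.3, and its difference was 1.26. Over the 3 treatments, YPEL2 rose by 1.48 ± 0.12, ABCA8 by 1.22 ± 0.14 and HAS2 by 1.35 ± 0.12 (limma, SE, adjusted p = 0.0234 for each). The 24 h against 2 h difference of ATL3 was 1.02 in DMSO, against 0.27 in PD184352 and −0.09 in PLX4720.

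The largest differences downward among these brighter genes were those of CCN1, DOK3, DACT1, PMEL, PPP1R15A, FOSL1, RBM14, ANXA2, TNFRSF12A and the pseudogene SEPTIN7P2. DOK3, a docking adaptor protein, had intensities of 265, 224 and 113, a difference of −1.23 that was −0.67 as the mean of its 2 rows (second row −0.11). DACT1, which acts on Dishevelled in Wnt signalling, had 455, 352 and 217, and PPP1R15A, the stress-induced subunit that directs a phosphatase to eIF2α, had 919, 642 and 494. These 3 were lowest at 24 h, and PPP1R15A had lost the larger part by 6 h. PPP1R15A is in neither the ATF4-type list nor the endoplasmic reticulum stress list, so it does not enter their counts. FOSL1, an AP-1 subunit and target of the ERK pathway, had 1264, 1264 and 687 and so differed after 6 h alone. TNFRSF12A, the TWEAK receptor, had 1359, 1261 and 779. The annexin ANXA2 had 418, 361 and 232 in DMSO, a 24 h against 2 h difference of −0.84, against 0.73 in PD184352 and 0.63 in PLX4720 (difference −1.52 ± 0.15, limma adjusted p = 0.00153). DACT1 was likewise lower in DMSO, at −1.06, against 0.43 and 0.22 in the inhibitors (difference −1.39 ± 0.19, limma adjusted p = 0.00406).

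**Figure D3:**
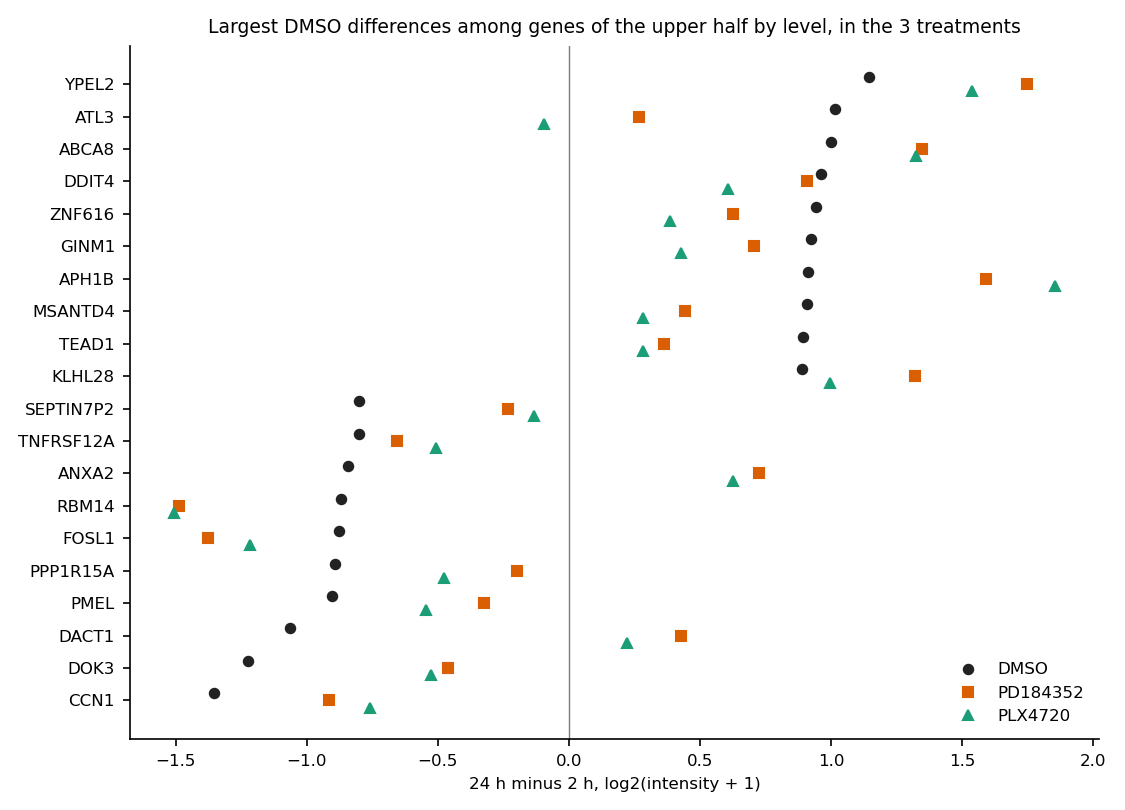
Difference of 24 h minus 2 h on log2(intensity + 1) in DMSO (circles), PD184352 (squares) and PLX4720 (triangles), for the 10 largest upward and the 10 largest downward DMSO differences among genes of the brighter 50%. YPEL2, ABCA8 and APH1B lie further right in both inhibitors than in DMSO, ANXA2 and DACT1 lie left of 0 in DMSO and right of it in both inhibitors, and RBM14 and FOSL1 lie further left in both inhibitors.

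Over all levels, 11 of the 15 largest upward differences at 24 h against 2 h and 9 of the 15 largest downward ones belonged to the dimmer 50% of genes. LOC729080 had 4.59, 16.7 and 25.8 at 2, 6 and 24 h, a difference of 2.26 at 24 h against 2 h. HSD3BP4, a pseudogene, had 9.36, 16.7 and 27.9, and KIF27, a kinesin, had 20.3, 8.02 and 8.74. The other genes of the dimmer 50% among the 15 largest upward differences were FBXO34, H2BC10, HAS2, KRTAP19-2, RGPD1, SEMA3D, SLC16A4, SLC2A12 and ZNG1A, and among the 15 largest downward ones AMY2B, CCDC154, LINC00342, LOC100132356, LOC401324, OR10G2, OR56A5 and THAP12.

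Some genes had their highest or lowest value at 6 h. NFE2L3, a transcription factor of the cap'n'collar family, had intensities of 522, 976 and 664, the largest upward difference in the brighter 50% at 6 h against 2 h (0.90). Its second row was at −0.45, and the mean of both was 0.23. PLK2, a polo-like kinase, had 320, 552 and 410, NCKAP5 had 141, 252 and 238 (second row 0.00 at 6 h against 2 h), and MDM2, the ubiquitin ligase of p53, had 813, 1039 and 883. PMEPA1, a target and inhibitor of TGF-β signalling, had 880, 1120 and 580, the second largest downward difference in the brighter 50% at 24 h against 6 h (−0.95). All 5 were highest at 6 h, NCKAP5 lay close to that value at 24 h, and PMEPA1 lay below its 2 h value. In the other direction, PPT2, a lysosomal thioesterase, had 423, 253 and 326, and GPS2, a subunit of a corepressor complex, had 320, 188 and 214. Their lowest value was that at 6 h. Of the 162 genes at least 1.5-fold higher at 24 h against 2 h, 106 (65.4%) had covered the larger part of the difference by 6 h, whereas of the 62 lower genes 21 (33.9%) had. No such share was taken over all genes, and the 2 h column enters both the choice of genes and the 6 h part. Over the brighter 50%, 62% of genes were higher at 6 h than at 2 h (52% of all genes). At 24 h against 6 h, 59.3% of the brighter 50% were lower (48% of all genes). A shift of the whole 6 h column was not set apart from the timing of these genes.

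The zinc finger genes, taken by a symbol of ZNF or ZFP and a number, a list drawn up after their values were seen, were higher at 6 h than at 2 h in 317 of 396 cases, against 52% of all genes, with a median of 0.17, and 16 of them were past 1.5-fold, against 0.598% of all genes. ZNF616 had intensities of 119, 207 and 229, and ZNF836 had 25.4, 56.9 and 43.5. The list's median at 6 h against 2 h was 0.18 in PD184352 and 0.02 in PLX4720. Gene length moved with the 6 h difference as well. In the brighter 50% of genes, the median difference at 6 h against 2 h was −0.02 in the shortest 20% of genes and 0.09 in the longest 20% in DMSO, against 0.03 and 0.13 in PD184352 and −0.03 and −0.02 in PLX4720. The part of length in the difference of the zinc finger genes was not tested.

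Many lists lay near the all-gene median in every DMSO comparison. For immediate-early genes the median was 0.03 at 6 h and −0.04 at 24 h against 2 h (21 genes), for circadian clock genes −0.01 and −0.03 (18 genes), for cholesterol synthesis genes 0.04 and 0.03 (18 genes), and for matrix and adhesion genes 0.00 and −0.02 (28 genes). The feedback genes of the ERK pathway, which report its activity, had medians of 0.08 at 6 h and −0.02 at 24 h in DMSO (14 genes), against −0.67 and −0.65 in PD184352 and −0.42 and −0.33 in PLX4720. SPRY4, a member, had 1290, 1869 and 1910 in DMSO. Among glucocorticoid-induced genes (14 genes, medians −0.04 and 0.01), FKBP5, a co-chaperone of the receptor, had 66.2, 111 and 99.9, and with DDIT4 was 1 of 2 members past 1.5-fold.

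**Figure D4:**
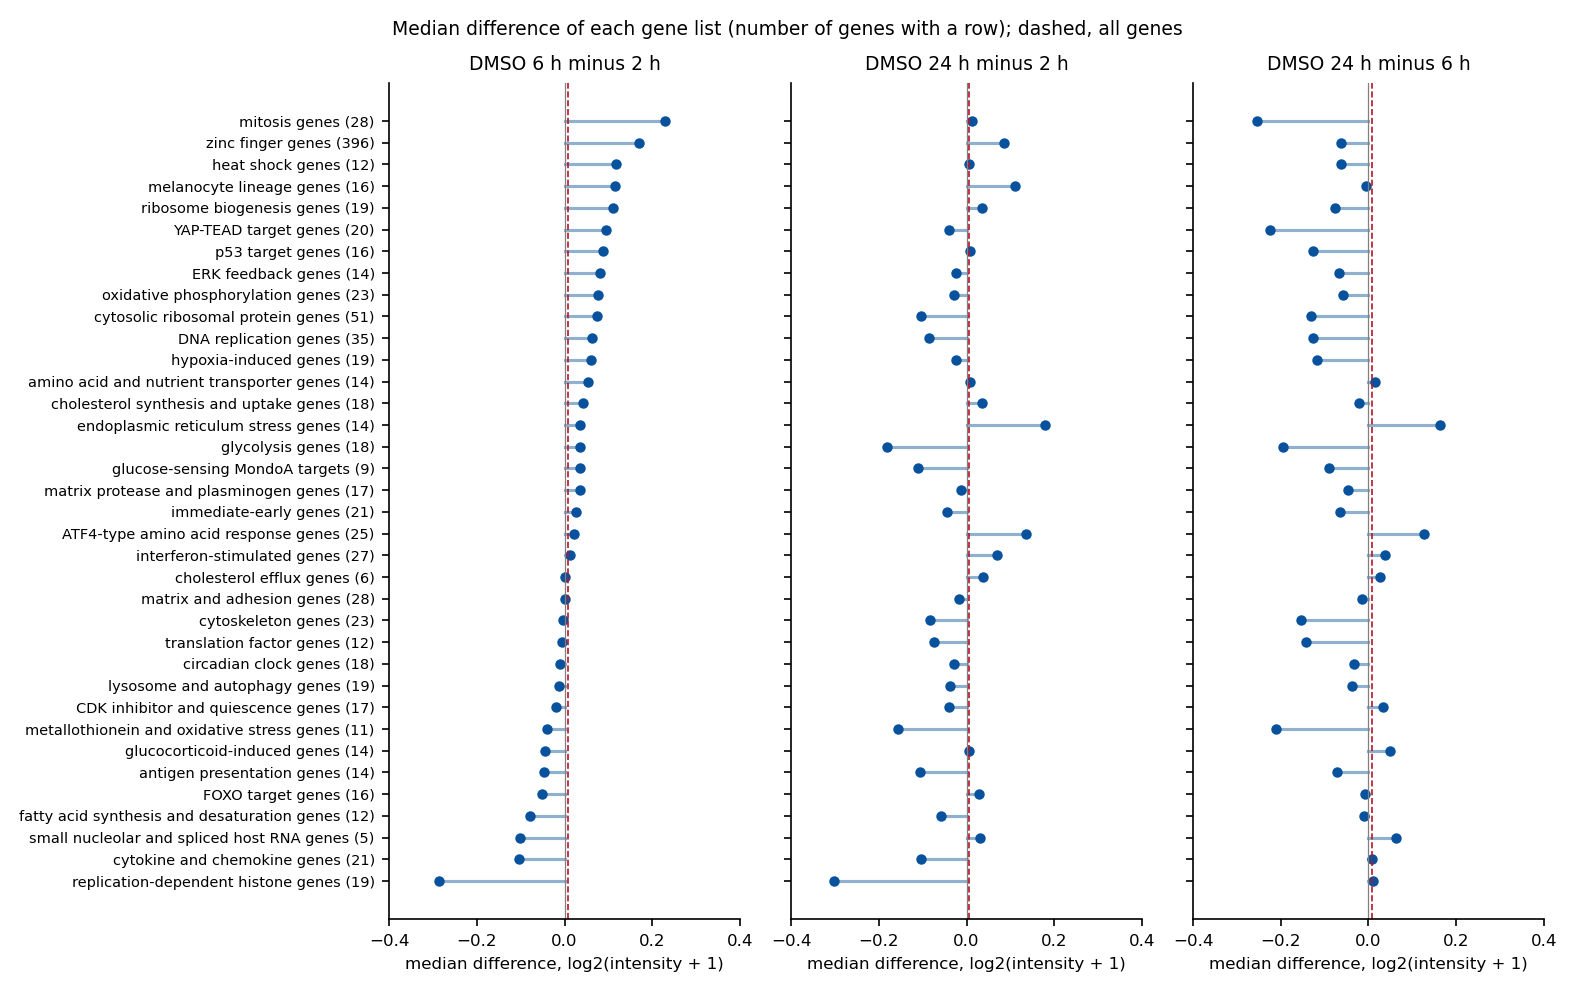
Median difference on log2(intensity + 1) of each gene list (number of genes with a row in parentheses) in the 3 DMSO comparisons, ordered by the 6 h minus 2 h median, with the median of all genes dashed. Histone genes (−0.29) and mitosis genes (0.23) lie at the ends at 6 h minus 2 h, and endoplasmic reticulum stress genes (0.18), glycolysis genes (−0.18) and histone genes (−0.30) lie farthest from 0 at 24 h minus 2 h. Mitochondrially encoded genes, with 1 row, are left out.

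The genes with the highest intensities were led by noncoding RNA, histone and secreted protein genes. The 20 with the highest mean were, in order, MALAT1, H2BC14, H1-4, THBS1, ND5, EIF3I, H4C3, H3C2, H2AC21, MDH2, CHMP2A, PSAP, RPS2, SERPINE2, FARSA, TSPAN3, TMEM109, PRNP, ACTN4 and CANX. Intensity depends on the probes as well as on the transcript, so this order is one of signal and not of abundance. MALAT1, a long nuclear RNA, had 13071, 13973 and 12888 at 2, 6 and 24 h. THBS1, the secreted thrombospondin 1, had 10553, 12060 and 8092, and SERPINE2, a secreted protease inhibitor, had 4704, 5262 and 5418. None of the 20 was past 1.5-fold between any pair of DMSO columns, where 2.23% of all genes were, and 5 (25%) were past 1.25-fold, where 15.9% of all genes were. Of the 20, 5 encode histones, all of them highest at 2 h. The THBS1 difference at 24 h against 6 h was −0.58. SLC5A3, the sodium-coupled inositol transporter, which lay just below these levels, had 3373, 3582 and 6012, a difference of 0.83 at 24 h against 2 h.

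**Figure D5:**
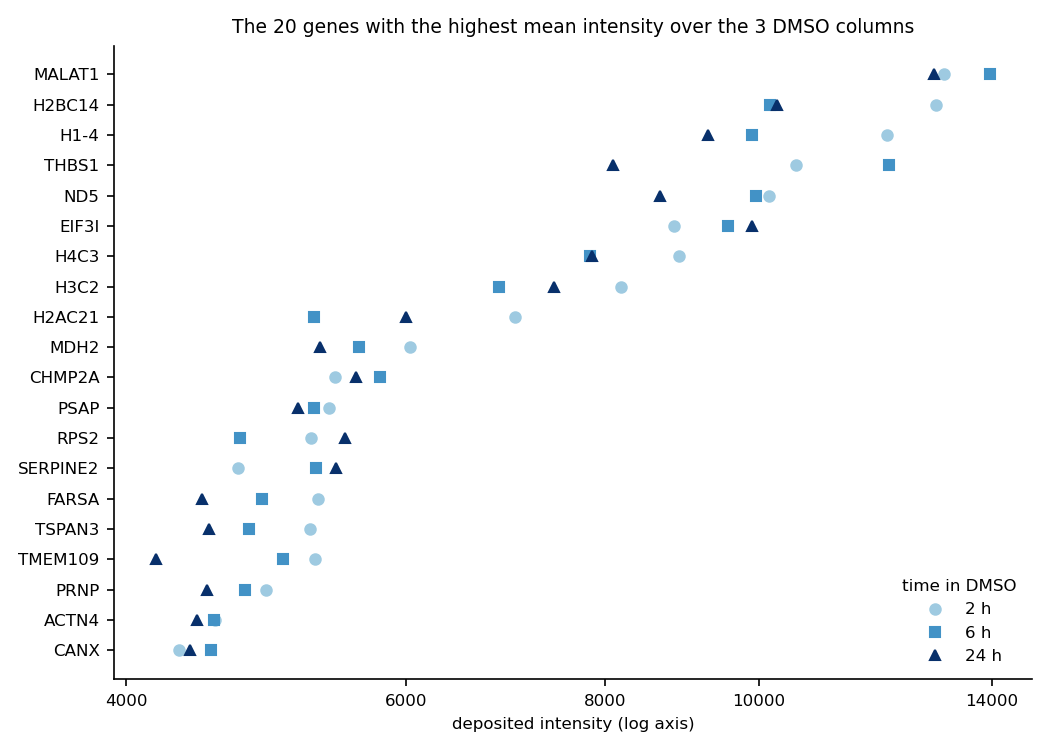
Deposited intensity (log axis) at 2, 6 and 24 h in DMSO of the 20 genes with the highest mean over the 3 DMSO columns. The 5 histone genes (H2BC14, H1-4, H4C3, H3C2 and H2AC21) have their highest value at 2 h, and no gene spans 1.5-fold.

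How far the DMSO differences held in the other columns was asked over all genes. Of the 162 genes at least 1.5-fold higher at 24 h than at 2 h in DMSO, 122 were higher in PD184352 (67 past 1.5-fold) and 114 in PLX4720 (49 past 1.5-fold). Of the 62 lower genes, 40 were lower in each inhibitor (13 past 1.5-fold in PD184352 and 12 in PLX4720). Over all 17047 genes, 7715 were higher and 9332 lower in PD184352, and 8097 higher and 8950 lower in PLX4720. Past 1.5-fold lay 1193 higher and 852 lower genes in PD184352, and 749 higher and 851 lower in PLX4720. The limma fit of time over the 3 treatments called 1053 genes higher (6.18%) and 596 lower (3.5%) at 24 h against 2 h, together 9.67%. Among the DMSO genes past 1.5-fold it called 84 of 162 higher and 20 of 62 lower, a count partly fixed by the choice of genes, since the fit holds the same DMSO columns. It called 2 genes (0.0117%) at 6 h against 2 h, of which 1 was ARRDC3, an arrestin-domain protein induced when glucose is sensed, with 122, 200 and 199 in DMSO. Both calls were lost with a pseudocount of 32, without the dimmest 25% or 50% of genes, and with quantile normalization. The fit called 0 genes at 24 h against 6 h, with 4073 at an unadjusted p below 0.05. These calls rest on the inhibitor columns: without the DMSO columns the fit called 5182 genes at 24 h against 2 h, and without the PD184352 columns or without the PLX4720 columns it called 0, with fewer residual degrees of freedom (2 in place of 4). The test of the difference between the DMSO and the inhibitor change called 2054 genes (12%), 1119 higher in DMSO (6.56%) and 935 lower (5.48%). In both fits the spread is that between columns of different treatments and not between cultures, so the p-values do not measure the spread of repeated DMSO cultures.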

How the data were processed

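Gene-level intensities on a linear scale were deposited by the authors, 1 column for each of 3 treatments and 3 times, and the median intensity per column lay between 98.96 and 102.35. RMA, limma and R 2.8.0 are named, per the submitters' processing notes, without a role. No source used here gives the genome build. Of 35446 array rows, 19380 carried a single symbol in the platform annotation, 3339 carried several and 12727 were unlisted. The brightest row over the 9 columns stood for each of 1794 genes with more than 1. Symbols were checked by gene ID against RefSeq, and 0 changed. No pair of columns was identical (0 of 36).

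Differences were taken on log2(intensity + 1), which understates the change of dim genes, with no further normalization. Genes past 1.5-fold between DMSO columns were counted as a description. limma 3.58.1 (R 4.3.3) with Benjamini-Hochberg adjustment over 17047 genes fitted time and treatment over the 9 columns (4 residual degrees of freedom). A second fit, added after seeing the data, compared DMSO with the mean of both inhibitor columns at each time, leaving 3 residual degrees of freedom. For simulated data on 17047 genes, of which 200 were changed, the first recovered, for 24 h against 2 h, 59% of changes of 0.5 (log2) and 92% of changes of 1, and the second 0% and 28%. For arrays, their number limits the precision.

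The 36 gene lists held 829 genes, of which 632 had a row. The members and lists were chosen with earlier results of these data known. Genes were named by rule: the 15 largest DMSO differences each way at 24 h against 2 h, the 8 largest each way in the other comparisons, the 20 brightest genes and up to 4 per list by size at 24 h against 2 h. After seeing the values, the 10 and 5 largest each way among the brighter 50% of genes, the zinc finger list and further list members were added. A Y-linked gene is not reported here. Tables were handled in Python 3.11.15 with pandas 2.3.3 and numpy 2.4.6. The alternatives tried were a pseudocount of 0 or 32, leaving out the dimmest 25% or 50% of genes, quantile normalization, centring, other rules for genes with several rows, other fold thresholds, limma with trend and robust settings, and leaving columns out.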

Additional observations from a re-analysis of the deposited data

Results flagged for a closer look

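Of 74 genes named for a DMSO difference, 26 changed differently at 24 h against 2 h in DMSO than in the inhibitors (limma test of the DMSO change minus the mean inhibitor change, adjusted p below 0.05, a rule that called 12% of all genes). The 74 were chosen for the same DMSO values that enter this test, so the count is a description and is not read against that share. The call of 13 of the 26 was kept under every alternative run for it, and that of the other 13 (APH1B, ATL3, DOK3, H2BC10, HSD3BP4, KIF27, MSANTD4, OR10G2, PLK2, RBM14, SHISAL1, TEAD1 and ZNG1A) was lost under at least 1. The inhibitors stand in for each other as the 2 samples at each time, so the test compares columns of different compounds and holds no measure of the DMSO spread. Differences below are on the log2 scale, DMSO minus inhibitors.

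The DMSO change was more negative or less positive for LINC00342 (−2.17), SEMA3D (−2.43), PMEPA1 (−1.84), SLC16A4 (−1.60), ANXA2 (−1.52), DACT1 (−1.39), AMY2B (−1.38), OR10G2 (−1.30), KIF27 (−1.26), PPT2 (−1.24), LOC100132356 (−1.18), CCDC154 (−1.02), APH1B (−0.81), PLK2 (−0.81), DOK3 (−0.73) and SEPTIN7P2 (−0.62). It was more positive or less negative for MRGPRX3 (2.68), CHAC1 (1.58), ZNG1A (1.30), H2BC10 (1.17), HSD3BP4 (1.13), ATL3 (0.93), SHISAL1 (0.93), RBM14 (0.63), TEAD1 (0.57) and MSANTD4 (0.55).

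Several of these genes had changes of opposite sign. LINC00342, a long noncoding RNA, had a 24 h against 2 h difference of −1.31 in DMSO, against 1.05 in PD184352 and 0.67 in PLX4720. PMEPA1 had −0.60 in DMSO, against 1.42 and 1.06. MRGPRX3, an orphan receptor, had 0.57 in DMSO, against −2.06 and −2.16. For SEMA3D, a semaphorin, the difference was upward in all 3, at 0.97 in DMSO, against 3.34 in PD184352 and 3.46 in PLX4720.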

How the results depend on the processing

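Replicates could not be paired because each treatment and time had 1 column and the labels carry no replicate number. The fit of time with treatment as a factor compares the times within treatments. The number of genes past 1.5-fold depended on dim genes. At 6 h against 2 h the 154 genes became 34 with a pseudocount of 32, 77 and 39 without the dimmest 25% and 50% of genes, and 305 with every array row counted. At 24 h against 2 h the 224 became 90 with a pseudocount of 32, 120 without the dimmest 50% and 374 with every row. At 24 h against 6 h the 121 became 39, 68 and 49, and 221. A 2-fold threshold left 10, 17 and 8 genes, and a 1.25-fold threshold, chosen after seeing the data, gave 1187, 1768 and 970. The 2 calls of the time effect at 6 h against 2 h were lost (0) with a pseudocount of 32, without the dimmest 25% or 50%, and with quantile normalization. Leaving out one treatment's columns gave 0 to 376 genes at 6 h against 2 h, 0 to 5182 at 24 h against 2 h, and 0 to 3969 at 24 h against 6 h. The test of the difference between treatments gave 1472 to 2175 genes when 1 inhibitor column was left out. The count of zinc finger genes higher at 6 h was 148, against 317, without the dimmest 50% of genes, where fewer of them are left. With the mean of all rows of a gene, RPL7A turned to −0.028 at 6 h and −0.034 at 24 h against 2 h, and PLK1 to −0.0347 in the difference between treatments. The medians of the 12 list comparisons checked kept their sign in 84 of 84 alternatives, and 6 of these moved the median by more than 1.5 times: DNA replication genes at 24 h against 6 h to −0.0645 from −0.127 with quantile normalization, ATF4-type genes at 24 h against 2 h to 0.0832 from 0.136 with centring, melanocyte genes to 0.247 without the dimmest 50% and 0.0579 with centring from 0.111, and oxidative phosphorylation genes at 6 h against 2 h to 0.0477 and 0.0467 with quantile normalization and centring from 0.0768. With no second DMSO column at any time, sampling and culture error of a single gene cannot be had.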

Other observations

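Of the array rows outside the comparisons, a larger share was past 1.5-fold than of the genes, each of which counts 1 row. With every row counted, the 19380 rows with 1 symbol held 305 past 1.5-fold at 6 h against 2 h. They held 374 at 24 h against 2 h and 221 at 24 h against 6 h. Of the 12727 rows that the platform table does not list, 5.53% were past 1.5-fold at 6 h against 2 h in DMSO, 5.18% at 24 h against 2 h and 4.74% at 24 h against 6 h, at a median intensity of 55.8. Of the 3339 rows with several symbols, these shares were 2.22%, 2.16% and 1.89%, at a median intensity of 133.

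Some further gene groups are given here with the shares over all genes. At 6 h, 52% of all genes and 62% of the brighter 50% were higher than at 2 h. Ribosome biogenesis genes were higher in 15 of 19 cases (median 0.11), and lower at 24 h than at 6 h in 14 of 19, against 48% of all genes and 59.3% of the brighter 50%. Cytosolic ribosomal protein genes were lower at 24 h than at 2 h in 33 of 51 cases (median −0.10), against 48.4% of all genes. Over the 3 treatments 9 of the 51 fell (limma, adjusted p below 0.05), against 3.5% of all genes, and 6 with the mean of all rows of a gene. Several of these genes have more than 1 row, and RPL7A, whose brightest row differed by 0.67 at 24 h against 2 h, had 2 rows of the opposite sign. Heat shock genes were higher at 6 h than at 2 h in 10 of 12 cases, with HSP90AA1, a cytosolic chaperone, at 193, 250 and 169 at 2, 6 and 24 h. The p53 targets were higher at 6 h in 13 of 16 cases and lower at 24 h than at 6 h in 13 of 16.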
